A study of Mus musculus with 15 samples.

Results

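The genes described here are 9 long noncoding RNAs, chosen by name: Malat1, Neat1, Meg3, H19, Gas5, Snhg1, Snhg3, Snhg8 and Snhg12. They were looked up by symbol among the 45232 Ensembl gene entries of the count table. Of the 9 genes, 8 had an entry and 6 passed the filter on low counts that left 17834 genes for testing. Snhg1 had no entry under its own identifier and was not analysed here as a gene. The choice assumed abundant transcripts, and the data bore this out only in part. Ranked by mean count over all libraries, Malat1 stood at place 333, Gas5 at 426 and Neat1 at 1103, whereas Snhg8 (9184), Snhg12 (9421) and Meg3 (15232) were far lower. H19 (29810) and Snhg3 (22586) were at or near 0.

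RNA-seq was done on 15 libraries of CD45.2+ LSK cells (lineage-negative, Sca1+, c-Kit+), the bone marrow fraction that holds hematopoietic stem and early progenitor cells, from C57BL/6 mice. The WT group had 3 libraries, and it is labelled only as wild type. The other 4 groups, of 3 libraries each, were Jak2 V617F Idh2 R140Q mutant LSK cells taken from irradiated recipients that had received equal parts of CD45.2 mutant and CD45.1 WT marrow. The mutant alleles were switched on by Mx1-Cre, an interferon-inducible Cre that is active in blood cells and in other tissues. Recipients were given vehicle, AG221 (an inhibitor of mutant IDH2, 40 mg per kg), ruxolitinib (a JAK kinase inhibitor, 60 mg per kg) or the combination, by gavage for 21 to 28 days, with the last dose about 1.5 hours before sacrifice. An age range and both sexes are given for all mice together, but neither the age of a group nor whether a library came from a single mouse is given, so p-values measure the spread between these libraries.

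Malat1 and Neat1 are nuclear RNAs made from neighbouring genes. Malat1 gathers in nuclear speckles, where splicing factors are stored, and Neat1 is the scaffold of paraspeckles, nuclear bodies built with proteins such as SFPQ and NONO. Meg3 and H19 are imprinted, which means that transcription of a copy depends on the parent it came from. In both genes only the maternal copy is transcribed. Meg3 belongs to the Dlk1-Gtl2 cluster, which is known in hematopoietic stem cells. Gas5 and the Snhg genes are hosts of small nucleolar RNAs (snoRNAs), which are cut from their introns and guide the modification of ribosomal RNA. The spliced Gas5 transcript begins with a run of pyrimidines, as the mRNAs of ribosomal proteins and translation factors do, and is removed by nonsense-mediated decay when translation is active.

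The starts of the transcripts are shown so that the pyrimidine run known from Gas5 can be looked for in the other genes. RefSeq (GRCm38.p6) windows of 250 bases before and 50 bases after the start were matched for 7 of the 9 genes, 9 windows in all. Each line gives 20 bases before the start and 50 bases from it, 5′ to 3′ on the gene's strand, with the unbroken run of C or T at the start in capitals. The windows lie at chr1:161035146-161035215 (plus strand, the second Gas5 start), chr3:123508287-123508356 (minus, Snhg8), chr4:132308658-132308727 (plus, Snhg12), chr19:8723467-8723536 (plus, Snhg1), chr19:5802623-5802692 (minus, Malat1) and chr12:109540976-109541045 (plus, the first Meg3 start).
Gas5: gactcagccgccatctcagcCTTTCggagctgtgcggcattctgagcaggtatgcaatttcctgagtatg
Snhg8: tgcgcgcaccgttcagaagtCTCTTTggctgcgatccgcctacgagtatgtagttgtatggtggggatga
Snhg12: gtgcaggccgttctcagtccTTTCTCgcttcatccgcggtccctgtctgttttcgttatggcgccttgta
Snhg1: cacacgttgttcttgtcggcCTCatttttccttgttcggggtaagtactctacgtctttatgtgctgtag
Malat1: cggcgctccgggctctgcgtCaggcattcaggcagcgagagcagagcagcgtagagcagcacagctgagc
Meg3: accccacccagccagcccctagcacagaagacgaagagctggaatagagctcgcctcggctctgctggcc

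The run was 5 bases in Gas5 and 6 in Snhg8, and both began with C. Snhg12 had a run of 6 that began with T, Snhg1 a run of 3 and Malat1 a single C. There was none at the other 4 starts, where Snhg3, the first Gas5 start and the second Meg3 start began with G and the first Meg3 start with A. The run was therefore absent from 1 snoRNA host and from 1 of the starts of another. A start with C followed by C or T through at least the fifth base was found in 2.51% of all 32851 RefSeq windows. The letters TTCNNNGAA (a STAT site), CACGTG (an E-box) and TGANTCA (an AP-1 site), searched on both strands, were in none of the 9 windows and in 8.3%, 7.15% and 7.81% of all windows. The cAMP-response letters TGACGTCA, searched only after the windows had been read, were in the first Meg3 window and the second Gas5 window, and in 1.79% of all windows.

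Levels below are CPM, the counts of a gene scaled to a common library size (TMM), and total counts ran from 18836625 to 32174287 per library. The 9 LSK and stem cell markers summed to between 1860 and 4080 CPM in every library, with Kit and Cd34 the highest in each group. Single markers moved differently. Mean Flt3 was 572 CPM in WT and 94.0 to 370 in the mutant groups, Hlf was 278 and 49.5 to 130, and Slamf1 was 13.3 and 24.6 to 37.4. Ly6a was 71.1 in WT, 83.6 with vehicle, 128 with AG221, 44.9 with ruxolitinib and 54.0 with the combination. Markers of other cells moved with the groups. The 4 plasma cell markers summed to 590 to 1270 CPM in WT and to 33.9 to 216 in the mutant groups, and the 4 mature neutrophil markers summed to 312 to 489 CPM under AG221 against 58.1 to 158 under vehicle, 108 to 527 under ruxolitinib, 26.7 to 130 under the combination and 54.4 to 89.6 in WT. The 4 erythroid markers summed to 45.5 to 76.4 CPM in WT and 98.6 to 933 in the mutant groups, and the LSK sum was 3740 to 4080 in WT and 1860 to 3100 in the mutant groups. B-lineage markers summed to 61.4 to 80.5 CPM in WT and 27.0 to 56.3 in the mutant groups. T and NK cell (0.158 to 4.02), stroma and bone (2.54 to 17.3) and endothelial (90.0 to 208) sums did not exceed 208 CPM. Most of the endothelial sum was Pecam1 (group means 103 to 173 CPM). The means of Cdh5 were 0.0456 to 0.249, those of Kdr 1.09 to 4.05 and those of Emcn 5.44 to 25.1. Sex-linked genes differed as well: Xist was at 455 to 511 CPM in WT and at most 19.5 in the mutant groups, so sex cannot be told apart from genotype. The part of these differences in any result was not tested, and fewer cells of a type cannot be told apart from less RNA per cell. The letter that opens a library's name, whose meaning is not given, was B for WT and the combination and A for the rest.

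Neat1 (chromosome 19, 5824708 to 5845478, minus strand, 1 exon of 20771 bases in GENCODE M21) had the smallest adjusted p of the 6 tested genes in each comparison in which it was called. It stood at 107, 92.7 and 83.4 CPM in the 3 WT libraries and at 320, 261 and 217 in the vehicle libraries. It was at 373, 290 and 293 CPM under AG221, at 254, 190 and 232 under ruxolitinib, and at 95.4, 84.1 and 88.2 under the combination. Every library of the vehicle, AG221 and ruxolitinib groups was above every library of WT and of the combination. Such a lack of overlap was seen in 25.6% of all genes tested for vehicle above WT and in 15.2% for the combination below vehicle.

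In mean ± SD (n = 3), Neat1 was 94.5 ± 12.0 CPM in WT, 266 ± 51.8 with vehicle, 319 ± 46.9 with AG221, 225 ± 32.4 with ruxolitinib and 89.2 ± 5.69 with the combination. Neat1 rose 2.82-fold in vehicle-treated mutant cells against WT (log2 1.50, SE 0.17, adjusted p = 0.000186, edgeR quasi-likelihood test). It stayed above WT under AG221 (log2 1.76, SE 0.171, adjusted p = 3.39e-05) and under ruxolitinib (log2 1.25, SE 0.169, adjusted p = 0.00074). The combination lowered Neat1 2.98-fold against vehicle (log2 -1.58, SE 0.171, adjusted p = 0.00022). It was also lower than with AG221 alone (log2 -1.84, SE 0.172, adjusted p = 9.7e-05) and with ruxolitinib alone (log2 -1.34, SE 0.17, adjusted p = 0.000692).

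Neither drug alone changed Neat1 detectably. AG221 against vehicle gave log2 0.26 (95% interval -0.10 to 0.62) and ruxolitinib against vehicle gave log2 -0.24 (-0.60 to 0.12). The combination departed from the sum of the single effects (log2 -1.597, SE 0.237, adjusted p = 0.00798), where 8.42% of all genes tested departed from additivity. Against WT the combination gave log2 -0.08, with an interval of -0.44 to 0.28, so changes within that range were not resolved. All 7 Neat1 calls (against WT, vehicle, AG221, ruxolitinib and for additivity) held in every alternative fit and with each library left out. The level also followed the letter in the library names, with 190 to 373 CPM in the 9 A libraries and 83.4 to 107 in the 6 B libraries. No comparison among libraries of the same letter passed the test for Neat1, so the letter and the groups cannot be told apart.

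**Figure D1:**
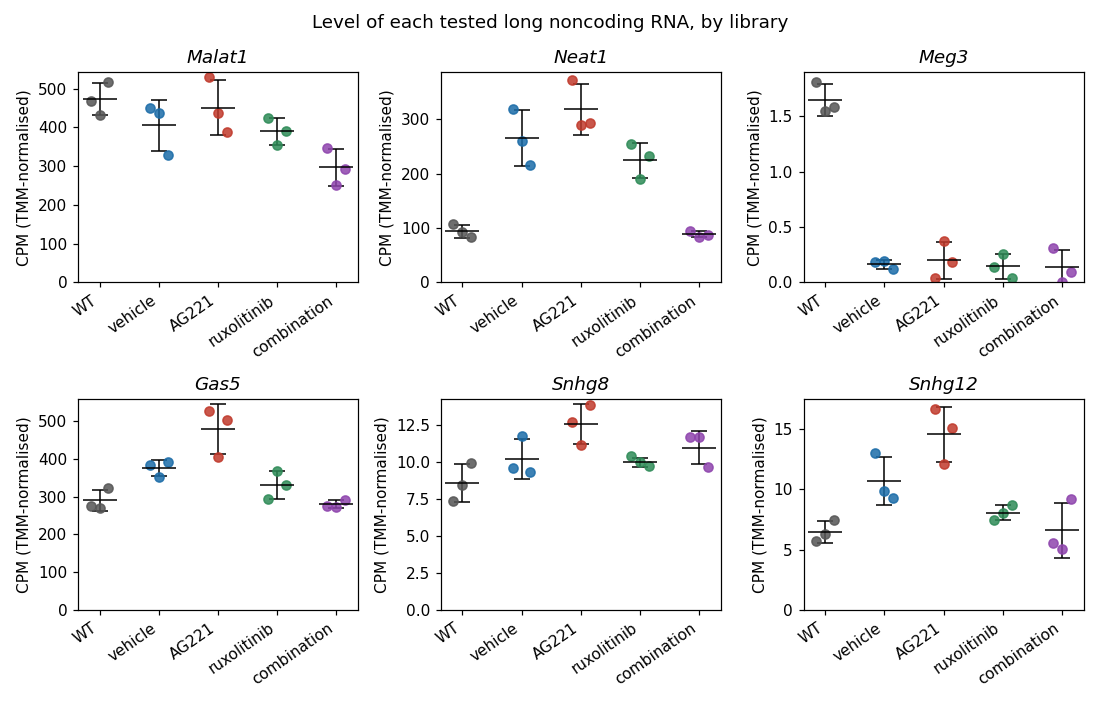
TMM-normalised CPM of the 6 tested genes, 1 panel each, with a point for each library and a bar for the mean ± SD of each group (n = 3). Neat1 lies at 83.4 to 107 CPM in WT and the combination and at 190 to 373 in the other groups, and Meg3 is above 1.5 CPM only in WT.

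Malat1 (chromosome 19, 5795690 to 5802672, minus strand, 1 exon of 6983 bases) did not share this pattern. Its levels were 468, 432 and 517 CPM in WT, 449, 437 and 328 with vehicle, 529, 437 and 388 with AG221, 425, 355 and 391 with ruxolitinib, and 347, 252 and 292 with the combination. The WT, AG221, vehicle and ruxolitinib groups, in this order of their means (473, 451, 405 and 390 CPM), each overlapped the next, and the combination, at 297 ± 47.6 CPM (SD, n = 3), was below all WT, AG221 and ruxolitinib libraries (19.3%, 20.3% and 15.6% of all genes tested did so).

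Malat1 fell with the combination against AG221 (log2 -0.60, SE 0.163, adjusted p = 0.014) and against WT (log2 -0.67, SE 0.163, adjusted p = 0.0428). The second of these stands within libraries of the letter B, but it was lost when any of 5 of the 6 libraries was left out, and without combination B25 the adjusted p was 0.18. The first was lost without combination B25 (adjusted p = 0.0599). Against vehicle the combination gave log2 -0.45 (adjusted p = 0.094), and without vehicle A4, the lowest vehicle library, it passed (log2 -0.58, adjusted p = 0.044). Vehicle against WT gave log2 -0.22 (95% interval -0.57 to 0.13).

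Because both RNAs are counted in the same library, their ratio needs no scaling. Neat1 had 0.229, 0.214 and 0.161 counts per Malat1 count in WT, and 0.714, 0.596 and 0.662 with vehicle. The ratio was 0.665 to 0.756 with AG221 and 0.536 to 0.598 with ruxolitinib, and 0.275, 0.333 and 0.302 with the combination. The combination lay between WT and vehicle without overlapping either, whereas the Neat1 CPM of the combination overlapped WT. The exact permutation p (two-sided) was 0.1 for vehicle against WT, combination against vehicle and combination against WT, which is the smallest that 3 against 3 libraries allow. The ratio was chosen after the single levels had been seen.

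**Figure D2:**
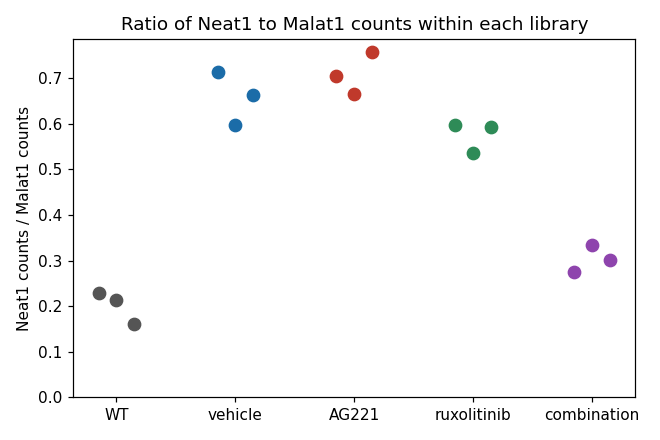
Neat1 counts divided by Malat1 counts in each of the 15 libraries, by group. WT lies at 0.161 to 0.229, the combination at 0.275 to 0.333, and the other 3 groups at 0.536 to 0.756.

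Per kilobase of annotated exon (20771 bases for Neat1 and 6983 for Malat1), mean Neat1 was well below mean Malat1 in every group. The means were 4.55 and 67.7 CPM per kb in WT and 12.8 and 58.0 with vehicle. Where along the exon the reads fell was not tested. The order of Neat1 and Malat1 therefore holds for these lengths only, and not for a shorter transcript. By annotated exon length, Gas5 had the highest level of the 8 genes with an entry (77.1 CPM per kb in WT, 100 with vehicle). Snhg8 had 10.1 and 12.0, and Snhg12 had 2.70 and 4.47.

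Protein-coding neighbours were looked at next. Frmd8, 4224 bases from Neat1, gave log2 0.40 (adjusted p = 0.125) for vehicle against WT and -0.18 (adjusted p = 0.61) for combination against vehicle. Of the 25 tested protein-coding genes within 50 kb of any of the 9 genes, 5 were higher and 2 lower in vehicle against WT, where 15.4% and 17.9% of all genes tested were. In combination against vehicle, 1 was higher and none lower, where 12.5% of all genes tested were called in either direction.

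The mRNAs of paraspeckle proteins were looked at beside Neat1. Of the 15 tested, 4 were higher and 1 lower in vehicle against WT (Cpsf6, Smarca4, Ewsr1 and Hnrnpk higher, Hnrnph3 lower), where 15.4% of all genes tested were higher and 17.9% lower, with a median log2 change of 0.38 against -0.09 over all genes. Sfpq, whose protein binds Neat1 and is needed to build paraspeckles, was at 60.8 to 64.1 CPM in WT and 54.1 to 59.0 with vehicle, and at 79.5 to 109 with AG221, 43.8 to 57.5 with ruxolitinib and 107 to 138 with the combination. Sfpq was the only one of the list called in combination against vehicle (log2 1.05, SE 0.153, adjusted p = 0.00171), where 12.5% of all genes tested were called. Its sign there was opposite to that of Neat1. It was also higher with AG221 against vehicle (log2 0.71, adjusted p = 0.0464) and with the combination against WT (log2 0.91, adjusted p = 0.00903). Nono gave log2 0.36 (adjusted p = 0.0977) for vehicle against WT. Hnrnph3 followed the letter in the library names, at 78.2 to 93.1 CPM in the B libraries and 25.5 to 67.6 in the A libraries.

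The genes whose log2 CPM followed Neat1 most closely over the 15 libraries were Gm43361 (r = 0.982), the small nuclear RNA gene Gm24407 (r = 0.981) and Ccrl2, a chemerin-binding receptor (r = 0.977). Ccrl2 had mean levels of 15.8 CPM in WT, 76.7 with vehicle, 63.4 with AG221, 46.2 with ruxolitinib and 14.8 with the combination. For Malat1 the closest were Adam8 (r = 0.863), Btla (r = 0.855) and Spata13 (r = 0.841). These correlations are descriptions over libraries that share groups, and no p is given.

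Counting over the 6 tested genes, 4 were called in vehicle against WT (33.3% of all genes tested) and 5 in AG221 against WT (50.7%), 2 in ruxolitinib against WT (32.3%), and 2 in combination against WT (3.25%). Against vehicle, AG221 called none (0.987%), with 1 at an unadjusted p under 0.05 (25.2% of all genes), ruxolitinib called none (0.0168%), with none at an unadjusted p under 0.05 (4.56% of all genes), and the combination called 2 (12.5%). The combination called 4 against AG221 (33.2%) and 1 against ruxolitinib (12.4%). DESeq2 also called none for AG221 or ruxolitinib against vehicle. Meg3, which is described further on, is in each count against WT, and without it these were 3, 4, 1 and 1 of 5. These comparisons share the WT or vehicle libraries.

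**Figure D3:**
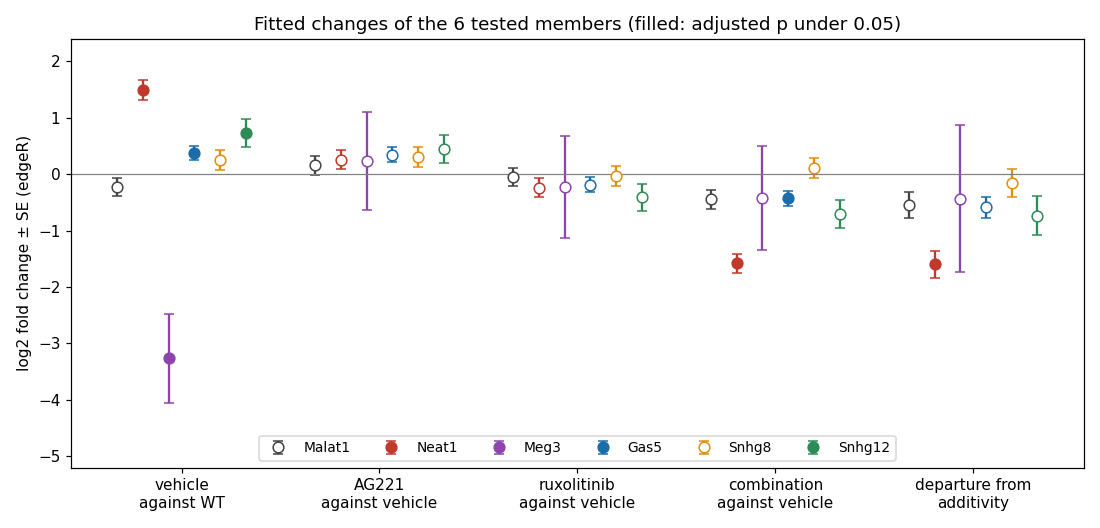
Fitted log2 fold changes ± SE of the 6 tested genes in 4 comparisons and for the departure of the combination from additivity, filled where the adjusted p was under 0.05. Neat1 is called higher in vehicle against WT and lower in the combination, and no gene is called for AG221 or ruxolitinib alone.

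Gas5 (chromosome 1, 161034422 to 161038539, plus strand) had 276, 271 and 323 CPM in WT, 385, 353 and 391 with vehicle, 528, 404 and 503 with AG221, 294, 368 and 331 with ruxolitinib, and 274, 273 and 292 with the combination. AG221 was highest, with all its libraries above all vehicle libraries, as was so, in this direction, for 12.7% of all genes. The combination was below all vehicle libraries (15.2% of all genes) and overlapped WT.

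Gas5 rose in AG221 against WT (log2 0.72, SE 0.129, adjusted p = 0.000964) and fell in combination against AG221 (log2 -0.77, SE 0.129, adjusted p = 0.00248), and both calls held with each library left out. It was also called higher in vehicle against WT (log2 0.38, SE 0.129, adjusted p = 0.0393) and lower in combination against vehicle (log2 -0.43, SE 0.129, adjusted p = 0.0449). The first of these smaller changes was lost without vehicle A1 or A4 or WT B28 or B30 (adjusted p from 0.0867 to 0.142), and the second was lost when any 1 of the 6 libraries was left out (adjusted p from 0.06 to 0.142). AG221 against vehicle gave log2 0.35 (adjusted p = 0.126), and without AG221 A9, the lowest AG221 library, the adjusted p was 0.0126 (log2 0.46). The mature neutrophil markers were higher in the same AG221 libraries, and their part was not tested.

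Snhg12 (chromosome 4, 132308623 to 132311024, plus strand) had a similar order of groups at a lower level. It was at 5.70, 6.27 and 7.48 CPM in WT, 13, 9.86 and 9.27 with vehicle, 16.7, 12.1 and 15.1 with AG221, 7.44, 8.08 and 8.69 with ruxolitinib, and 5.53, 5.05 and 9.25 with the combination. Combination B26 was apart from the other 2 libraries of its group and close to the lowest vehicle library.

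Snhg12 rose in AG221 against WT (log2 1.17, SE 0.246, adjusted p = 0.00237) and fell in combination against AG221 (log2 -1.15, SE 0.247, adjusted p = 0.00506), and it was called higher in vehicle against WT (log2 0.73, SE 0.245, adjusted p = 0.0371). The last call was lost without vehicle A1 or A4 or WT B28 or B30 (adjusted p from 0.0515 to 0.127). Combination against vehicle gave log2 -0.70 (adjusted p = 0.0825), and without combination B26 it gave log2 -1.02 (adjusted p = 0.0139).

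Snhg8 (chromosome 3, 123507552 to 123508404, minus strand) differed little between groups. Its means were 8.58 ± 1.27 CPM in WT, 10.2 ± 1.35 with vehicle, 12.6 ± 1.35 with AG221, 10 ± 0.314 with ruxolitinib and 11 ± 1.14 with the combination (SD, n = 3). Ordered by mean (AG221, combination, vehicle, ruxolitinib, WT), each group overlapped the next. It was called in AG221 against WT alone (log2 0.55, SE 0.178, adjusted p = 0.0208), and this call was lost without AG221 A8 or A10 or WT B28 or B30 (adjusted p from 0.0505 to 0.0827). For combination against vehicle the interval was -0.27 to 0.49 on the log2 scale. The counts of Snhg12 per Snhg8 count were 0.744 to 0.770 in WT, 0.837 to 1.36 with vehicle, 1.09 to 1.31 with AG221, 0.718 to 0.893 with ruxolitinib and 0.432 to 0.952 with the combination.

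The closest genes to Gas5 over the 15 libraries were Mmachc (r = 0.981), which processes vitamin B12, Ece2 (r = 0.98), an endothelin-converting enzyme, and Atic (r = 0.978), which carries out the last steps of purine synthesis. For Snhg12 they were Max, the partner of MYC (r = 0.96), Apobec3 (r = 0.948) and Prrc2c (r = 0.945), and for Snhg8 they were Atraid (r = 0.919), 1810058I24Rik (r = 0.906) and Smim4 (r = 0.905).

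Although Snhg1 itself was not analysed here, 8 snoRNA entries inside its gene (chromosome 19, 8723475 to 8726443) held counts, and they were looked at after the other values had been seen. They summed to 20.1, 14.2 and 19 CPM in WT, 28.7, 24 and 28 with vehicle, 46.5, 29.6 and 39.6 with AG221, 24.8, 26.1 and 24.3 with ruxolitinib, and 12.9, 16 and 20.4 with the combination. AG221 had the highest sums, and WT and the combination overlapped at the bottom, as for Gas5.

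All 8 entries were lower in combination against AG221 (14.3% of all genes tested were lower), with log2 changes from -1.67 to -0.82, and 6 of 8 were higher in AG221 against WT (22.2% higher). Vehicle against WT called 2 higher and combination against vehicle called 2 lower, in both cases Gm24452 (log2 1.15, adjusted p = 0.00787, and log2 -1.26, adjusted p = 0.00733) and Gm23246 (log2 0.71, adjusted p = 0.0459, and log2 -1.11, adjusted p = 0.0131). With single libraries left out, between 4 and 8 were called in combination against AG221. The entries lie side by side in 1 gene and are not independent of each other, and a short entry may count spliced or unspliced host RNA as well as snoRNA.

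By contrast, the small RNA entries inside the genes that had an entry of their own (10 in Gas5, 5 in Snhg12, 1 in Snhg8, 2 in Snhg3, 3 each in Neat1 and H19, 4 in Meg3 and 1 in Malat1) had 0 counts in every library. STAR's gene counting leaves out reads that overlap more than 1 gene. Such entries cover 17.8% of the Gas5 exons, 15.2% of those of Snhg8 and 19.6% of those of Snhg12 on the same strand, so reads there would be missing from the levels given above.

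Of the 10 other snoRNA hosts tested, 2 were higher (Snhg15 and Snhg17) and 2 lower (Snhg11 and Snhg20) in vehicle against WT, close to the shares of all genes (15.4% and 17.9%), with a median log2 change of -0.02. Snhg15 was at 31.1 to 40.6 CPM in WT, 56.7 to 66.8 with vehicle, 58.6 to 75.7 with AG221, 39.0 to 42.0 with ruxolitinib and 29.1 to 31.1 with the combination. It rose in vehicle against WT (log2 0.80, adjusted p = 0.00331) and fell in combination against vehicle (log2 -1.06, adjusted p = 0.00121), as did Snhg17 (log2 0.48, adjusted p = 0.0362, and log2 -0.69, adjusted p = 0.0147). Snhg20 went the opposite way (log2 -1.41, adjusted p = 0.0152, and log2 1.27, adjusted p = 0.0405). Its levels also followed the letter in the library names, with 29.8 to 41.4 CPM in the B libraries and 3.46 to 15.3 in the A libraries.

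Of 12 tested genes for the proteins that package and modify with snoRNAs, 8 rose and none fell in vehicle against WT (15.4% of all genes rose), with a median of log2 0.61. Gar1 (log2 -0.66, adjusted p = 0.39) and Naf1 (log2 -0.16, adjusted p = 0.592) did not pass the test. Those that rose included Nop58 (log2 0.75, adjusted p = 0.0109), Nop56 (log2 0.58, adjusted p = 0.0224), Nhp2 (log2 0.88, adjusted p = 0.00992) and Dkc1, the pseudouridine synthase (log2 0.65, adjusted p = 0.0274). In combination against AG221, 8 fell and 1 rose (median log2 -0.73), where 14.3% of all genes fell. None was called in combination against vehicle, where the median was log2 -0.30, nor in combination against WT. Under upper quartile normalisation the count for vehicle against WT dropped from 8 to 3.

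Of 18 tested translation genes whose mRNAs begin with a pyrimidine run, 12 rose and 1 fell in vehicle against WT (median log2 0.47), where 15.4% of all genes rose. In AG221 against WT 14 rose and 1 fell (median log2 0.89), where 22.2% of all genes rose. In combination against AG221 2 rose and 13 fell (median log2 -0.55), where 14.3% of all genes fell. In combination against vehicle 1 rose and none fell (median log2 -0.10), where 12.5% of all genes were called. Combination against WT called none (3.25% of all genes). Eef1a1, the elongation factor that brings aminoacyl-tRNA to the ribosome, rose in vehicle against WT (log2 0.43, adjusted p = 0.0201), as did Eef2 (log2 0.50, adjusted p = 0.0102) and Npm1 (log2 0.75, adjusted p = 0.0171). Eif3f was the gene that fell in that comparison (log2 -1.44, adjusted p = 0.0218). It followed the letter in the library names, at 51.3 to 180 CPM in the B libraries and 11.9 to 37.9 in the A libraries. Under upper quartile normalisation the 13 calls in vehicle against WT became 3.

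Factors of nonsense-mediated decay, which acts on Gas5 and other snoRNA hosts, were mixed. Of 14 tested, 4 were higher (Rbm8a, Magoh, Smg9 and Eif4a3) and 1 lower (Casc3) in vehicle against WT (15.4% and 17.9% of all genes), and 2 were higher and none lower in combination against vehicle (12.5% called in either direction). These were Upf1 (log2 2.61, SE 0.783, adjusted p = 0.0437), the central helicase of the pathway, and Casc3 (log2 1.82, SE 0.407, adjusted p = 0.0106). Both also followed the letter in the library names. Upf1 was at 30.7 to 127 CPM in the B libraries and 2.52 to 25.9 in the A libraries, and Casc3 was at 40.7 to 115 and 12.3 to 33.7. The letter and the combination cannot be told apart. Ruxolitinib and AG221 called none of this list against vehicle.

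**Figure D4:**
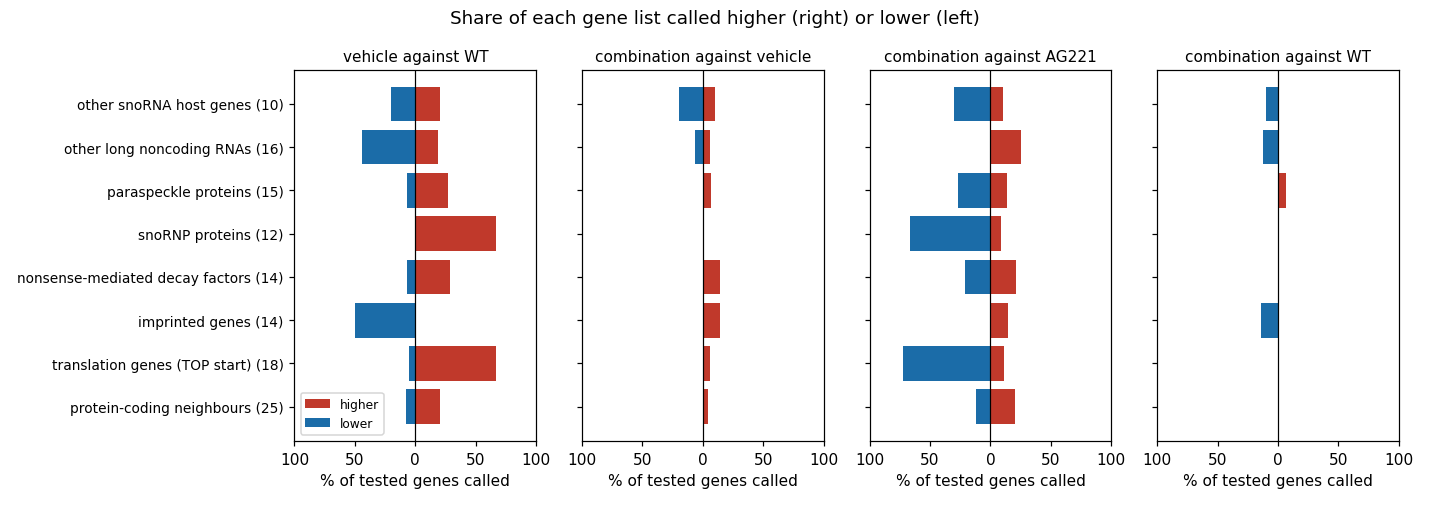
Percent of the tested genes of each list called higher (to the right) or lower (to the left) at adjusted p under 0.05 in 4 comparisons, with the number tested in brackets. In vehicle against WT, 8 of 12 snoRNP proteins and 12 of 18 translation genes are higher and 7 of 14 imprinted genes are lower. Combination against WT called 2 of 14 imprinted genes, 2 of 16 other long noncoding RNAs and at most 1 of each other list. Of all genes tested, 3.25% were called there.

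Meg3 (chromosome 12, 109541001 to 109571726, plus strand) was low everywhere, and WT stood apart. The counts were 50, 46 and 47 in the WT libraries, 5, 6 and 3 with vehicle, 1, 8 and 5 with AG221, 3, 6 and 1 with ruxolitinib, and 6, 0 and 2 with the combination. In CPM this was 1.65 ± 0.146 in WT and between 0.135 and 0.200 in the means of the mutant groups, whose libraries overlapped. All vehicle libraries were below all WT libraries, as in 31.3% of all genes tested. Meg3 passed the filter on low counts through the WT libraries alone, so a tested Meg3 had to be lower elsewhere.

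The fit with no filter on low counts does not choose Meg3 by its WT level, and there Meg3 was lower than in WT with vehicle (log2 -3.23, adjusted p = 0.0057), AG221 (log2 -2.98, adjusted p = 0.00484), ruxolitinib (log2 -3.45, adjusted p = 0.00555) and the combination (log2 -3.67, adjusted p = 0.0152), by edgeR's quasi-likelihood test. The filtered fit gave log2 -3.27, -3.03, -3.49 and -3.69, as a description. The combination and WT share the letter B in their names, so this difference is also present between libraries of the same letter. Libraries were left out in the filtered fit only. As a description, the call for the combination against WT was lost there without any 1 of 5 libraries (adjusted p from 0.0599 to 0.12). The log2 change was then between -3.73 and -3.01. Among the mutant groups no Meg3 difference passed the test, and with at most 8 counts in a library none could be resolved at this depth.

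Of 14 tested imprinted genes, 7 fell and none rose in vehicle against WT (17.9% of all genes tested fell). Of the 7, Snrpn passed the filter on low counts through the WT libraries alone, so it had to be lower elsewhere, whereas Plagl1, Rian and Ndn met its limit in 3, 5 and 7 of the 12 mutant libraries. Rian, in the same cluster as Meg3, was at 1.71 to 7.11 CPM in WT and 0 to 0.414 with vehicle (log2 -4.02, SE 1.22, adjusted p = 0.0254). The others were Ndn (log2 -4.56), Igf2r (log2 -4.17), Plagl1 (log2 -3.80), Snrpn (log2 -3.75), Cdkn1c, a cell cycle inhibitor (log2 -3.16), and Kcnq1ot1 (log2 -0.40). Ndn, like Meg3, was near 0 outside WT, at 12.1 CPM or more in each WT library and 0 to 1.56 in the mutant groups. Dlk1, the paternally expressed gene of the Meg3 cluster, gave log2 0.55 (adjusted p = 0.649), Mest gave log2 0.62 (adjusted p = 0.0956) and Grb10 gave log2 -0.001 (adjusted p = 0.999).

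With the combination, Igf2r (log2 1.73, adjusted p = 0.0145) and Gnas (log2 1.28, adjusted p = 0.0277) rose against vehicle, and Ndn (log2 -4.19, adjusted p = 0.0354) and Igf2r (log2 -2.44, adjusted p = 0.00932) were still below WT. The genes closest to Meg3 over the 15 libraries were Runx1t1 (r = 0.945), Grm8 (r = 0.939) and Slc16a5 (r = 0.931), and only 1 of these 3 remained among the closest 3 with a prior count of 0.5 instead of 2.

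H19 (chromosome 7, 142575529 to 142578143, minus strand) was not detected in 12 of 15 libraries, where 0 counts allow at most 3, or 0.0932 to 0.139 CPM by library. The libraries with a count were WT B30 (5), ruxolitinib A14 (2) and combination B24 (1). Snhg3 (chromosome 4, 132348014 to 132353686, minus strand) had 0 to 6 counts, with 3 to 6 in the combination and 0 to 4 elsewhere. Its exons are covered to 71.5% by Gm17300 on the opposite strand, which had 4 to 17 counts, and to 29.8% by Rcc1 and Snora73a on its own strand, so most reads of Snhg3 could overlap another gene, and the strand setting of the counting is not given. Neither gene passed the filter on low counts, and in the edgeR fit with no filter the smallest adjusted p over all comparisons was 0.205 (H19, vehicle against WT).

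Among 16 other tested long noncoding RNAs, 3 were higher (Pvt1, Rpph1 and Mir17hg) and 7 lower (Rian, Airn, Terc, Dleu2, Firre, Jpx and Kcnq1ot1) in vehicle against WT (15.4% and 17.9% of all genes). Rian and Kcnq1ot1 are also counted among the imprinted genes above. Sex cannot be told apart from genotype here (Xist at 455 to 511 CPM in WT and at most 19.5 in the mutant groups), and its part in the calls of Firre and Jpx was not tested. Airn passed the filter on low counts through the WT libraries alone, and Terc through those of the combination alone. Pvt1, next to Myc, rose (log2 1.37, adjusted p = 0.0135). It followed the letter in the library names, at 4.44 to 8.37 CPM in the B libraries and 8.71 to 21.3 in the A libraries. So did Dleu2, at 19.6 to 27.3 CPM (B) and 11.6 to 18.9 CPM (A). Combination against vehicle called 2 (12.5% of all genes tested were called), of which Tug1 fell (log2 -0.66, adjusted p = 0.0282). The other was Terc, the RNA template of telomerase, which by that filter had to be higher in the combination. As a description, Terc was at 0.833 to 1.66 CPM there against 0.0638 to 0.113 with vehicle (log2 3.87). Its levels also followed the letter in the library names, with 0.235 to 1.66 CPM in the B libraries and 0 to 0.141 in the A libraries.

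Together the 8 genes with an entry took 0.0997% ± 0.00612 of all counts in WT, 0.102% ± 0.013 with vehicle, 0.121% ± 0.0115 with AG221, 0.0928% ± 0.00357 with ruxolitinib and 0.0685% ± 0.00674 with the combination (SD, n = 3). The combination libraries (0.0613 to 0.0747%) were below all vehicle and all WT libraries, with an exact permutation p (two-sided) of 0.1 in both cases, the smallest possible. For AG221 against vehicle the exact permutation p was 0.2, for ruxolitinib against vehicle 0.4 and for vehicle against WT 0.8.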

How the data were processed

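CD45.2+ LSK cells were sorted from bone marrow, and RNA from Trizol was amplified with SMARTer. The authors aligned paired-end reads to mm10/GRCm38 with STAR 2.5.1a and counted them per Ensembl gene in the same run. The deposited counts are whole reads per gene, and the deposited signal table holds these counts divided by 1 size factor per library (DESeq2 1.6.3, per the labels). The signal table was only checked against the counts. The strand setting and the Ensembl release are not given in the sources used here.

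From the counts, genes were filtered with filterByExpr, scaled by TMM and tested with edgeR 4.0.16 (quasi-likelihood test, R 4.3.3), all 15 libraries in 1 fit, with Benjamini-Hochberg adjustment over 17834 genes and calls at an adjusted p under 0.05. SEs are the fold change divided by the root of F, and the common biological coefficient of variation was 0.313. The departure from additivity is the combination minus AG221 minus ruxolitinib plus vehicle, in log2. Single values per library were compared by exact permutation (scipy 1.17.1). Symbols came from GENCODE M21, which matched 44585 identifiers and left 647 without one. Scripts were tested on simulated data.

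The genes and lists (other snoRNA hosts, other long noncoding RNAs, paraspeckle and snoRNP proteins, decay factors, imprinted and translation genes, neighbours within 50 kb, cell type markers) were chosen with earlier results of these data known. Named were the 9 genes, genes of the lists, and for each tested gene the 3 with the highest Pearson r of log2 CPM (prior count 2). Alternatives were RLE and upper quartile scaling, DESeq2 1.42.0, other count filters, GC offsets, only the groups compared, a 1.5-fold limit, and fits without X and Y genes, without Malat1 and Neat1 in the library sizes, and without each library. The 95% intervals of log2 changes come from the same fit, and the floor of 3 counts for a count of 0 covers counting error only.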

Additional observations from a re-analysis of the deposited data

Results flagged for a closer look

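Neat1 was the gene among the 6 tested whose response to the combination differed from the sum of its responses to AG221 and to ruxolitinib, by an interaction term in the fit of all 15 libraries (log2 -1.597, SE 0.237, adjusted p = 0.00798, edgeR quasi-likelihood test). The combination libraries, at 84.1 to 95.4 CPM, were below every vehicle (217 to 320), AG221 (290 to 373) and ruxolitinib (190 to 254) library. The 3 combination libraries carry the letter B in their names and the other 9 carry A, so the letter and the combination cannot be told apart.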

How the results depend on the processing

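No paired analysis was possible because the labels give the groups no replicate numbers in common. Of 529 fits of a single gene's log2 change under another setting, 500 kept direction and side of the threshold, and of 396 with a library left out, 342 did. The number called in vehicle against WT (4) became 2 under upper quartile scaling, 2 with no filter and 1 with at least 10 counts in every library, where Meg3 is no longer tested. In combination against vehicle (2) it became 1 under RLE, upper quartile scaling, no filter, GC offsets and the 1.5-fold limit, with Neat1 kept each time. In combination against WT (2) it became 1 under RLE, no filter, at least 10 counts and GC offsets, and in ruxolitinib against WT (2) it became 1 at 10 counts. For the departure from additivity (1) it became 3 under upper quartile scaling (with Gas5 and Malat1), 2 under DESeq2 and 2 at 10 counts (with Gas5). With a library left out, the ranges were 2 to 4 (vehicle against WT), 0 to 1 (AG221 against vehicle), 1 to 2 (combination against vehicle), 0 to 2 (combination against WT) and 1 to 2 (departure). Apart from Meg3 leaving the test at 10 counts, the cause was not tested.

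The sign turned in uncalled values only. For combination against vehicle, Snhg8 became -0.004 under upper quartile scaling. For AG221 against WT, Malat1 became 0.036 under upper quartile scaling, 0.126 with GC offsets and 0.012 with only the groups compared. For combination against WT, Snhg12 became -0.167 (upper quartile), -0.097 (10 counts) and -0.03 (only the groups compared), and with GC offsets Neat1 became 0.018 and Gas5 0.089. With a library left out, log2 changes ranged from -0.183 to 0.016 (Malat1), -0.928 to 0.245 (Meg3) and -0.091 to 0.086 (Snhg8) in ruxolitinib against vehicle. Those of Meg3 ranged from -0.513 to 0.73 in AG221 against vehicle, -1.908 to 0.25 in combination against vehicle, -2.14 to 0.092 in combination against AG221, -1.685 to 0.475 in combination against ruxolitinib and -1.917 to 0.314 for the departure. Malat1 ranged from -0.187 to 0.045 in AG221 against WT, and Neat1 (-0.164 to 0.019), Gas5 (-0.097 to 0.033) and Snhg12 (-0.294 to 0.19) in combination against WT.

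Depth limits Meg3, H19 and Snhg3.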

Other observations

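The lists around these genes were also compared between WT and the cells treated with a single drug. With ruxolitinib against WT, where 32.3% of all genes tested were called, snoRNP protein genes were higher in 6 of 12 and lower in none, translation genes were higher in 9 and lower in 1 of 18, imprinted genes were lower in 6 of 14 and higher in none, and other long noncoding RNAs were higher in 2 and lower in 10 of 16. With AG221 against WT, where 50.7% were called, the counts were 8 higher and 1 lower for snoRNP proteins, none higher and 8 lower for imprinted genes, and 2 higher and 9 lower for other long noncoding RNAs. Snrpn and Airn, counted as lower in both, passed the filter on low counts through the WT libraries alone, and both comparisons share those libraries.

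Against AG221 alone, the combination was higher for Pspc1, a core paraspeckle protein gene (log2 2.15, SE 0.476, adjusted p = 0.00576), and Upf1 (log2 3.49, SE 0.818, adjusted p = 0.00738), by edgeR's quasi-likelihood test. For both genes every B library was above every A library, so the letter and the combination cannot be told apart. Terc was at 0 to 0.0364 CPM with AG221, under the limit that 3 counts set. It passed the filter through the combination libraries alone, so it had to be higher there. Its fitted value (log2 6.14) is a description and no bound. In the same comparison Snhg5, a further snoRNA host, was lower (log2 -0.87, SE 0.181, adjusted p = 0.00451), as were Magoh (log2 -0.89, SE 0.17, adjusted p = 0.00343) and Eif4a3 (log2 -0.76, SE 0.154, adjusted p = 0.00417), subunits of the exon junction complex.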
